A study of Rattus norvegicus with 14 samples.

Results

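The inner root sheath keratins described here are Krt25, Krt27, Krt28 and Krt73, 4 of the 14497 genes compared in rat foreskin. They were taken by symbol: each is named by a single probe set of the array, so no choice between probe sets arose. The samples were foreskins collected on postnatal day 5 from Sprague Dawley pups whose mothers were gavaged daily on gestational days 16 to 20. In 7 litters the dam received 5 mg/kg/day flutamide, a drug that blocks the androgen receptor, and in the other 7 litters corn oil, the vehicle. RNA of 2 foreskins per litter was pooled and hybridised to 1 Affymetrix Gene 1.0 ST array, so a sample is an average over all cells of the tissue and the litter is the replicate.

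The inner root sheath is the rigid tube that surrounds the growing hair and moulds it until the sheath breaks down below the skin surface. Its cells fill with keratin filaments, each built from pairs of an acidic type I and a basic type II keratin, which are then fixed to trichohyalin by arginine deimination and transglutaminase crosslinks. In human follicles the type I keratins KRT25, KRT27 and KRT28 are found in all layers of the sheath, whereas the type I keratin KRT26 and the type II keratins KRT72 and KRT73 are found in its cuticle, the layer that faces the hair. In mice, mutations of Krt25 and Krt27 give wavy or curly coats.

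All values are log2 array values made with RMA, so a difference of -1 is a halving; values of different probe sets are not compared as levels. The arrays were alike, with medians within 0.073 of each other and correlations over genes from 0.984 to 0.992. Keratinocyte and fibroblast markers were bright, with Krt14 from 9.60 to 10.07 and Col1a1 from 8.79 to 9.32 over the 14 litters. Of the smooth muscle markers Acta2 was bright, from 9.90 to 10.29. Myh11, from 6.05 to 6.90, and Des, from 5.26 to 6.04, were dimmer. Of the fixed hair follicle markers, the 4 members, Krt31, Krt35, Krt85 and Dsg4 were measured. The hair shaft marker Krt31 ran from 4.28 to 5.29, Krt35 from 5.21 to 5.84, Dsg4 from 5.61 to 6.13 and Krt85 from 6.5 to 6.9. Krt71, Krt75 and Tchh, which encodes trichohyalin, were not analysed here, nor were the keratinocyte markers Krt5 and Lor.

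Krt25, Krt27 and Krt28 lie side by side with Krt26 on chromosome 10 in the RefSeq annotation of assembly GRCr8, and Krt73 lies between Krt72 and Krt2 on chromosome 7. The 250 bases before each annotated start are shown because the type I members are tandem copies whose values are compared across litters below. All 4 windows are on the minus strand of GRCr8 and are printed 5′ to 3′, Krt25 at chr10:84771198-84771447, Krt27 at chr10:84800132-84800381, Krt28 at chr10:84824858-84825107 and Krt73 at chr7:134815029-134815278. Capitals mark matches to TATAAA and to TCACCCANTTA, where N is any base.
Krt25: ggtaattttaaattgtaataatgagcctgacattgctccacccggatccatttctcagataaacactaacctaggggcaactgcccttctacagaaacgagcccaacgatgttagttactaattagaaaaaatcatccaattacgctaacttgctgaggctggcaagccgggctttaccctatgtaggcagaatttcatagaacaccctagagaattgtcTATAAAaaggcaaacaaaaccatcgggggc
Krt27: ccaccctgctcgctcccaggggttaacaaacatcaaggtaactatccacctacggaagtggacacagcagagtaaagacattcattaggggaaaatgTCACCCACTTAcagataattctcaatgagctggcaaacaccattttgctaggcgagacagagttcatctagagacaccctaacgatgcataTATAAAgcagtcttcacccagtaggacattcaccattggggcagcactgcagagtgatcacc
Krt28: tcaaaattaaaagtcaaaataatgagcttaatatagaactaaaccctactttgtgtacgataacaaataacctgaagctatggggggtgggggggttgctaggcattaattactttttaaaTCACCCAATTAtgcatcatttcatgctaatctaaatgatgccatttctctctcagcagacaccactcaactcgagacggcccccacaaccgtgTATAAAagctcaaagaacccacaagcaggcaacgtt
Krt73: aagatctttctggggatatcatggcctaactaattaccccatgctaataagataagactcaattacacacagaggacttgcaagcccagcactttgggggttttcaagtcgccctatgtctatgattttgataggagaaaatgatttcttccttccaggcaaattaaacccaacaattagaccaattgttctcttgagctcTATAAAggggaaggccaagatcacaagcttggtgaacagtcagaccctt

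A TATAAA match stood in all 4 windows, starting 30 bases before the annotated start in Krt25, 62 in Krt27, 36 in Krt28 and 49 in Krt73. Of 33469 rat windows of the same length, 12.9% held TATAAA on either strand. GATAA, the core of the sequence bound by GATA factors, was also in all 4, and in 23.5% of all windows. TGTTCT, the half-site bound by androgen and glucocorticoid receptors, was in the windows of Krt25 and Krt73, and in 17.5% of all. Krt28 alone of the 4 members held CTTTGA and CTTTGT, the core bound by TCF and LEF factors, which 13.9% and 16.3% of all windows held. The Krt26 window also held CTTTGT. Neither TGANTCA (6.34% of all windows) nor TTTATT (19.5%) matched in any of the 4. TCACCCANTTA is the longest stretch with 1 free base that the windows of Krt27, Krt28 and the neighbouring Krt26 share. It was looked for after the windows had been read, and it was in 9 of all windows (0.0269%), those 3 included. Krt25 was not part of that search, and its window holds tcatccaatta, which differs from the Krt28 match at 1 base. Both strands were searched, no matches of different motifs overlapped in these windows, and a match describes letters, not binding.

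The first comparison asked whether the level of these keratins depended on exposure of the litter to flutamide before birth. All 4 had lower means in flutamide litters, Krt73 by the most, and none passed the test. Over all 14497 genes, 1 gene (0.00690%) passed at an adjusted p under 0.05 in limma with Benjamini-Hochberg adjustment. The groups overlapped for all 4 members, as they did for all but 0.124% of genes. In such bulk samples, fewer inner root sheath cells and less RNA per cell cannot be told apart.

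Krt73, the type II member, had a lowest value of 6.49, a median of 6.59 and a highest of 6.87 in flutamide litters, against 6.67, 6.94 and 7.05 in corn oil litters. All 7 flutamide litters lay below the corn oil median, and 6 of 7 corn oil litters lay above every flutamide litter. The overlap came from corn oil replicate 6, the lowest of its group, and from flutamide replicates 5 and 6. Its means were 6.63 ± 0.13 in flutamide and 6.92 ± 0.13 in corn oil litters (SD, n = 7 each). The log2 difference of -0.30 (SE 0.07, 95% interval -0.44 to -0.16), a 0.813-fold level, had a limma p of 0.000343 and an adjusted p of 0.302. By p-value it ranked 14 of 14497 genes, and 9.16% of genes had an unadjusted p under 0.05.

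Krt25, whose mouse mutants have wavy coats, ran over nearly the same values in both groups. Its lowest, median and highest values were 8.11, 8.43 and 8.66 in flutamide litters, against 8.01, 8.58 and 8.77 in corn oil litters. The difference was -0.11 (SE 0.12, 95% interval -0.36 to 0.14; limma adjusted p = 0.822), with means of 8.39 ± 0.23 in flutamide and 8.50 ± 0.28 in corn oil litters (SD, n = 7 each).

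Krt27, its close relative in the same gene cluster, gave lowest, median and highest values of 8.29, 8.56 and 8.90 in flutamide litters, against 8.33, 8.82 and 9.01 in corn oil litters. Only 4 of 7 flutamide litters lay below the corn oil median. The means were 8.62 ± 0.24 in flutamide and 8.74 ± 0.23 in corn oil litters (SD, n = 7 each), a difference of -0.12 (SE 0.11, 95% interval -0.35 to 0.12; limma adjusted p = 0.795).

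Krt28, the third type I member, gave 6.37, 6.53 and 6.64 as its lowest, median and highest values in flutamide litters, against 6.34, 6.64 and 6.77 in corn oil litters. Here 6 of 7 flutamide litters lay below the corn oil median. Its means were 6.53 ± 0.10 in flutamide and 6.62 ± 0.14 in corn oil litters (SD, n = 7 each), and the difference was -0.09 (SE 0.07, 95% interval -0.23 to 0.05; limma adjusted p = 0.727).

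Corn oil replicate 1 was the lowest corn oil litter for all 3 type I members. Without it the differences were -0.19 for Krt25, -0.18 for Krt27 and -0.14 for Krt28, and none passed (limma adjusted p = 0.694, 0.699 and 0.582). The same array also had the highest SD of its values. With array SD as a covariate and all litters kept, the differences were -0.13, -0.13 and -0.12 in the same gene order. Their limma adjusted p were 0.850, 0.822 and 0.681. Corn oil replicate 1 also had high macrophage and red blood cell list means, whose part in these differences was not tested. For Krt73 the difference without it was -0.31.

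**Figure D1:**
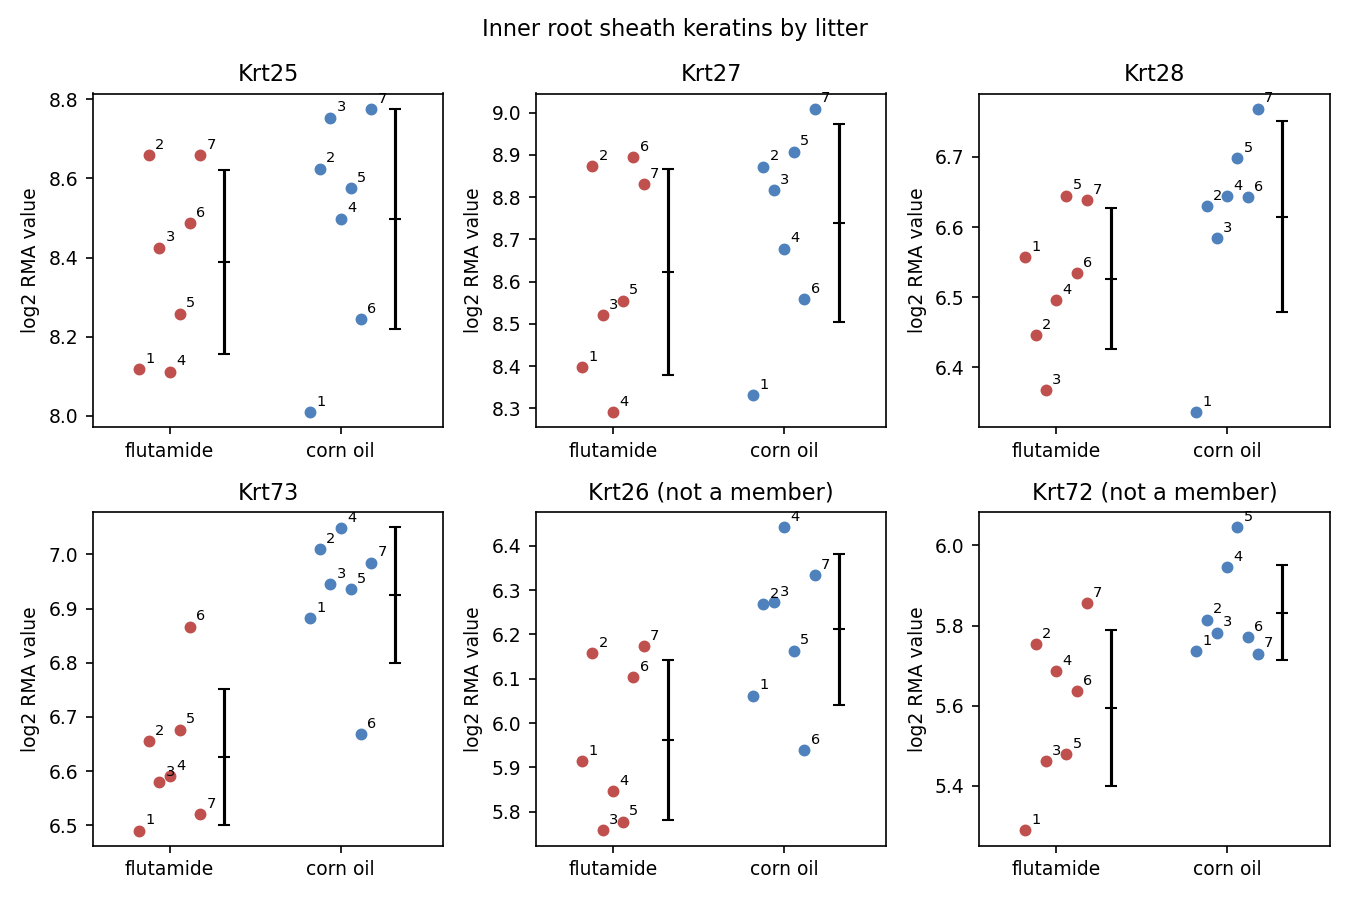
Log2 RMA values (y axis) of the 4 inner root sheath keratins and of Krt26 and Krt72 in flutamide (left) and corn oil (right) litters; points are litters with their replicate numbers, and bars to the right of the points give the mean and SD. For Krt73, 6 of 7 corn oil litters lie above every flutamide litter, while Krt25 runs from 8.11 to 8.66 in flutamide and from 8.01 to 8.77 in corn oil litters.

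Whether Krt73 differed more than the type I members was tested on the log2 ratio of each pair of members within a litter, a test added after the values had been seen. The ratio of Krt73 to Krt28 averaged 0.10 ± 0.16 in flutamide and 0.31 ± 0.17 in corn oil litters (SD, n = 7 each), a difference of -0.21 (SE 0.09) with a two-sided exact permutation p of 0.0326, or 0.196 adjusted over the 6 pairs. For Krt73 to Krt25 the difference was -0.19 (SE 0.13; exact permutation p = 0.160, adjusted 0.321) and for Krt73 to Krt27 it was -0.18 (SE 0.11; exact permutation p = 0.118, adjusted 0.321). None of these passed after adjustment. With single litters left out, the pair of Krt73 and Krt28 passed only without corn oil replicate 6, at -0.26 (adjusted exact permutation p = 0.0385). Without any other single litter its adjusted exact permutation p ran from 0.101 to 0.448. Ratios among the type I members differed by -0.03 to 0.01 between the groups, with exact permutation p from 0.802 to 0.907.

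Krt26 and Krt72, the other inner root sheath keratins measured, also had lower means in flutamide litters without passing the test. Krt26 had 5.76, 5.92 and 6.17 as lowest, median and highest values in flutamide litters, against 5.94, 6.27 and 6.44 in corn oil litters. All 7 flutamide litters lay below the corn oil median. The difference was -0.25 (SE 0.09; limma adjusted p = 0.368). Krt72 had 5.29, 5.64 and 5.86 in flutamide litters, against 5.73, 5.78 and 6.05 in corn oil litters. Here 5 of 7 flutamide litters lay below every corn oil litter. Its difference was -0.24 (SE 0.08; limma adjusted p = 0.368). Of the 6 keratins, the 3 that lie in the cuticle of the human sheath had differences from -0.30 to -0.24 and the 3 found in all its layers from -0.12 to -0.09. This grouping was made with the values known and carries no test.

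**Figure D2:**
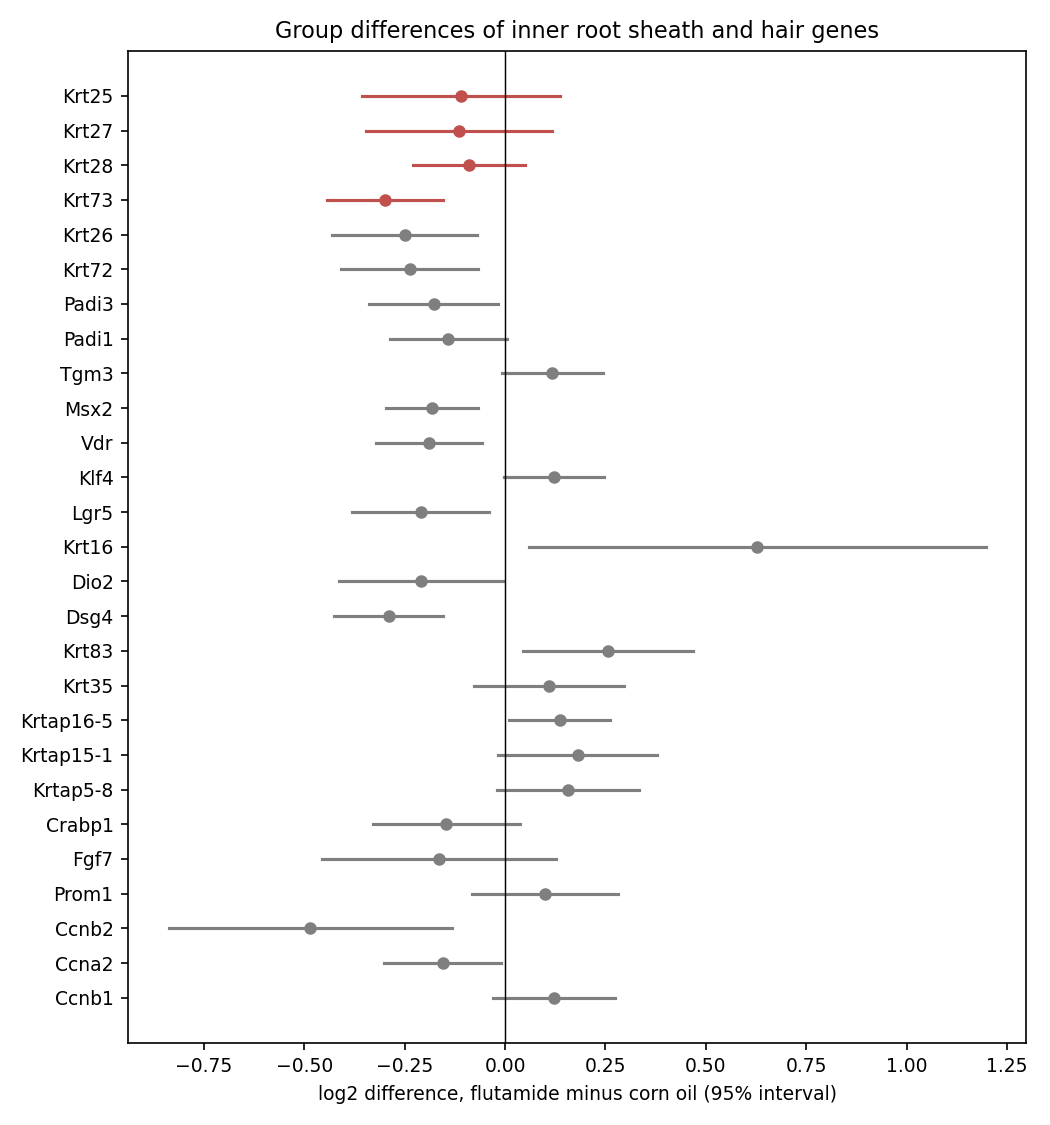
Log2 difference, flutamide minus corn oil (x axis), with limma's 95% interval for the 4 inner root sheath keratins (red) and 23 other inner root sheath and hair genes (grey). The interval of Krt73 runs from -0.44 to -0.16, those of Krt25, Krt27 and Krt28 include 0, and none of the genes passed the test over all genes.

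Genes for proteins that build and fix the sheath differed in both directions. Of 20 genes in the list of matrix, crosslinking and junction proteins, 10 were measured and 0 passed in either direction. Among the measured genes 6 had lower and 4 had higher means in flutamide litters. The median difference was -0.02, against 0.005 over all genes. In whole foreskin the RNA of these genes need not come from the sheath alone. Padi3, the peptidylarginine deiminase that acts on trichohyalin, differed by -0.18 (SE 0.08) and its relative Padi1 by -0.14 (SE 0.07). Padi1 had low values, with means of 4.91 in flutamide and 5.05 in corn oil litters. The Padi1 difference was -0.09 without flutamide replicate 4 and -0.10 with array SD as a covariate. Tgm3, the transglutaminase that crosslinks sheath and hair proteins, differed by 0.12 (SE 0.06). These 3 genes had the smallest p-values of the list, and their limma adjusted p lay between 0.507 and 0.573.

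Regulators of sheath and hair differentiation likewise gave 0 calls among 21 measured genes, 13 of them lower and 8 higher, with a median difference of -0.02. The 3 with the smallest p-values were Msx2, Vdr and Klf4. Msx2, a homeobox gene of the hair matrix, had 6.19, 6.37 and 6.45 as lowest, median and highest values in flutamide litters, against 6.42, 6.52 and 6.60 in corn oil litters. Its difference was -0.18 (SE 0.05; limma adjusted p = 0.348). Vdr, the vitamin D receptor gene needed for hair cycling in mice and humans, differed by -0.19 (SE 0.06; limma adjusted p = 0.363). Klf4, a factor of epidermal barrier formation, differed by 0.12 (SE 0.06; limma adjusted p = 0.550), or by 0.03 as the mean of its 2 probe sets.

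Hair shaft genes were split. Among 19 measured, 9 had lower and 10 had higher means in flutamide litters, with a median difference of 0.02 and 0 passing. Dsg4, the desmosomal cadherin whose loss causes lanceolate hair in rats, had 5.61, 5.71 and 5.83 as lowest, median and highest values in flutamide litters, against 5.73, 6.03 and 6.13 in corn oil litters. Of the corn oil litters, 6 of 7 lay above every flutamide litter, and replicate 1 was again the low one. Dsg4 differed by -0.29 (SE 0.06; limma adjusted p = 0.302). The shaft keratins Krt83 and Krt35 differed the other way, by 0.26 (SE 0.10) and 0.11 (SE 0.09), with limma adjusted p of 0.453 and 0.755, and Krt35 by 0.02 with array SD as a covariate. The Krt83 difference was 0.16 without corn oil replicate 4, and the Krt35 difference was 0.05 without corn oil replicate 1. Of 8 measured keratin-associated proteins, which embed the filaments of the shaft, 6 had higher and 2 lower means, with a median of 0.08 and 0 passing. The 3 with the smallest p-values were Krtap16-5 at 0.14 (SE 0.06), Krtap15-1 at 0.18 (SE 0.09) and Krtap5-8 at 0.16 (SE 0.08), the last at 0.09 as the mean of its 5 probe sets. Without flutamide replicate 7 the Krtap15-1 difference was 0.11. Krtap15-1 had low values, with means of 4.51 in flutamide and 4.33 in corn oil litters.

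Lists for other follicle compartments and for proliferation gave no calls either. The companion layer and outer root sheath list held 8 measured genes, 6 lower and 2 higher, with a median difference of -0.05. Within it Lgr5, a stem cell marker, differed by -0.21 (SE 0.08; limma adjusted p = 0.445), Dio2, which activates thyroid hormone, by -0.21 (SE 0.10; limma adjusted p = 0.541), and Krt16, a keratin of the outer root sheath and of stressed epidermis, by 0.63 (SE 0.27; limma adjusted p = 0.506). Without flutamide replicate 1 the Krt16 difference was 0.40. Dio2 had low values, with means of 4.45 in flutamide and 4.66 in corn oil litters. Dermal papilla genes had a median difference of -0.01 with 8 lower and 6 higher of 14, and the smallest p-values belonged to Crabp1 at -0.15 (SE 0.09), Fgf7 at -0.16 (SE 0.14) and Prom1 at 0.10 (SE 0.09). Each of these leaned on single litters: the Crabp1 difference was -0.08 without flutamide replicate 7, the Fgf7 difference was -0.05 without corn oil replicate 1 and -0.10 without corn oil replicate 6, and the Prom1 difference was 0.04 without corn oil replicate 3 and 0.07 without flutamide replicate 2. In the list of proliferation genes, whose RNA in whole foreskin need not come from the follicle, 9 of 11 were lower, with a median of -0.05. The cyclin genes Ccnb2, Ccna2 and Ccnb1 differed by -0.48 (SE 0.17), -0.16 (SE 0.07) and 0.12 (SE 0.07). As the mean of its probe sets Ccnb2 differed by -0.24, and without flutamide replicate 2 the Ccnb1 difference was 0.08. Among these 6 genes the lowest limma adjusted p was the 0.368 of Ccnb2.

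Markers of other foreskin cells are given beside these values. Of the 14 smooth muscle and pericyte genes, 11 had lower means in flutamide litters (median difference -0.11), with a log2 summed level from 11.28 to 11.56 in flutamide and from 11.40 to 11.56 in corn oil litters. The groups did not overlap for 2 of these 14 genes, against 0.124% of all genes, and 5 had an unadjusted p under 0.05, against 9.16% of all genes, with 0 passing after adjustment. Of the skeletal muscle genes, 6 of 8 were measured and 5 had lower means (median -0.13), with summed levels from 8.68 to 9.20 in flutamide and from 8.89 to 9.31 in corn oil litters, no gene with groups apart and 0 passing. Of the basal keratinocyte genes, 5 of 10 were measured and 4 had lower means (median -0.03), with summed levels from 10.54 to 10.80 in flutamide and from 10.62 to 10.86 in corn oil litters. Lower means were found for 5 of 9 dermal fibroblast genes (median -0.04) and 2 of 4 measured suprabasal and cornified epidermis genes (median -0.02). Sebaceous gland genes were lower for 6 of 8 measured (median -0.08), and macrophage genes for 5 of 7 (median -0.06). All 3 measured red blood cell genes had higher means (median 0.09), and 0 genes of these lists passed. With the basal keratinocyte mean as a covariate the difference of Krt73 was -0.29, and with the mean of the hair shaft keratins it was -0.29 (limma adjusted p = 0.338 and 0.294). The part of smooth and skeletal muscle content in these differences was not tested.

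The second comparison asked whether the members vary together from litter to litter. Krt25 and Krt27 varied together almost litter by litter, and no other pair of members passed. Their Pearson correlation over the 14 litters was 0.926 (permutation p = 1e-05, the smallest that 100000 resamples can give, and 6e-05 adjusted over the 6 pairs), and Spearman's rho was 0.811 (permutation p = 0.00085, adjusted 0.0051). With group means subtracted r was 0.922 (permutation p = 2e-05, adjusted 0.00012). Within the 7 flutamide litters it was 0.908 (exact permutation p = 0.00992, adjusted 0.0595) and within the 7 corn oil litters 0.945 (exact permutation p = 0.00258, adjusted 0.0155).

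Litters at either end were shared by both genes. Flutamide replicates 1 and 4 and corn oil replicate 1 were lowest for both, and corn oil replicate 7 was highest for both. When the litters farthest from the Krt25 median (flutamide replicate 4 and corn oil replicate 1) were left out, r was 0.883 over 12 litters (permutation p = 0.00013, adjusted 0.00078). Of all 14496 other genes, Krt27 had the highest correlation with Krt25 and Krt25 the highest with Krt27, group means subtracted. Near-identical stretches of related keratins may share probes, and whether that plays a part here was not tested.

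Krt28, although it neighbours Krt27, followed the others less closely. Its r was 0.563 with Krt27 (permutation p = 0.0366, adjusted 0.110; rho 0.512, permutation p = 0.0632) and 0.477 with Krt25 (permutation p = 0.0847, adjusted 0.127; rho 0.437, permutation p = 0.120). Without the 2 litters farthest from the median of the first gene these were 0.365 and 0.192. In corn oil litters the pair of Krt27 and Krt28 reached 0.850 (exact permutation p = 0.0159, adjusted 0.0476), against 0.113 in flutamide litters (exact permutation p = 0.794), and the difference between the groups was not tested. Without flutamide replicate 2 this pair had an r of 0.678 over 13 litters (permutation p = 0.00923, adjusted 0.0277).

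Krt73 had r of 0.499 with Krt27, 0.425 with Krt25 and 0.349 with Krt28 (permutation p = 0.0707, 0.129 and 0.220, adjusted 0.127, 0.155 and 0.220). The matching rho values were 0.455, 0.385 and 0.437 (permutation p = 0.105, 0.175 and 0.119). Without the 2 farthest litters r was 0.608, 0.541 and 0.466. With group means subtracted the r of Krt28 and Krt73 was 0.10 (permutation p = 0.737).

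**Figure D3:**
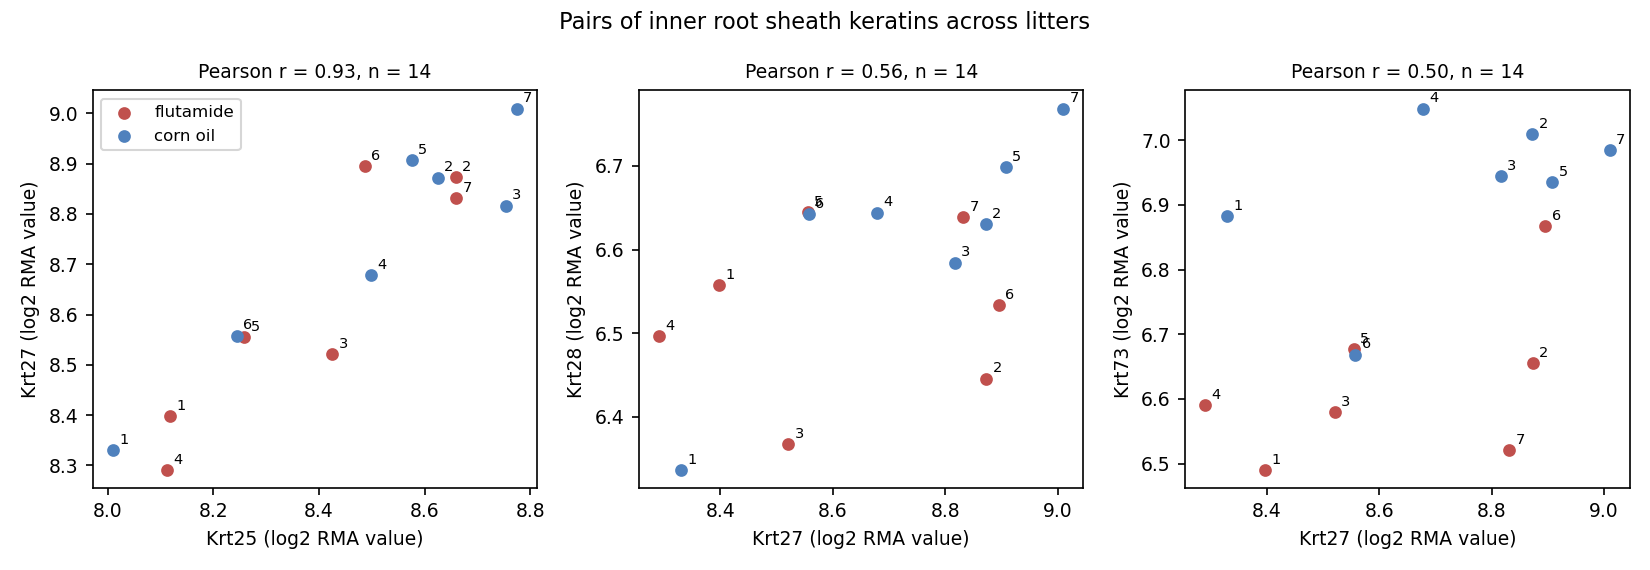
Log2 RMA values of 3 pairs of inner root sheath keratins, 1 point per litter with its replicate number, flutamide in red and corn oil in blue. Krt25 and Krt27 (left) lie close to a line in both groups, while Krt28 (middle) and Krt73 (right) scatter more against Krt27.

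Krt26 correlated with 3 of the 4 members. Its r over 14 litters was 0.750 with Krt73, 0.684 with Krt27 and 0.681 with Krt25 (permutation p = 0.00301, 0.00842 and 0.00878, each 0.0198 adjusted over 9 pairs), with rho of 0.714, 0.653 and 0.749 (permutation p = 0.00522, 0.0134 and 0.0029). With Krt28 its r was 0.451 (permutation p = 0.105, adjusted 0.118; rho 0.459, permutation p = 0.1) and did not pass. Without the 2 farthest litters r was 0.679, 0.712 and 0.731 for the 3 that passed, and 0.340 for Krt28. With group means subtracted none of those 3 passed after adjustment (r = 0.553, 0.692 and 0.705; adjusted permutation p = 0.150, 0.0536 and 0.0536). Within corn oil litters Krt26 and Krt73 reached 0.919 (exact permutation p = 0.00119, adjusted 0.0107), and within flutamide litters 0.206 (exact permutation p = 0.706). That difference between the groups was not tested. Krt72 had r of 0.596 with Krt73 (permutation p = 0.0238, adjusted 0.0429; rho 0.530, permutation p = 0.0545), but 0.381 without the 2 farthest litters and 0.219 with group means subtracted.

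**Figure D4:**
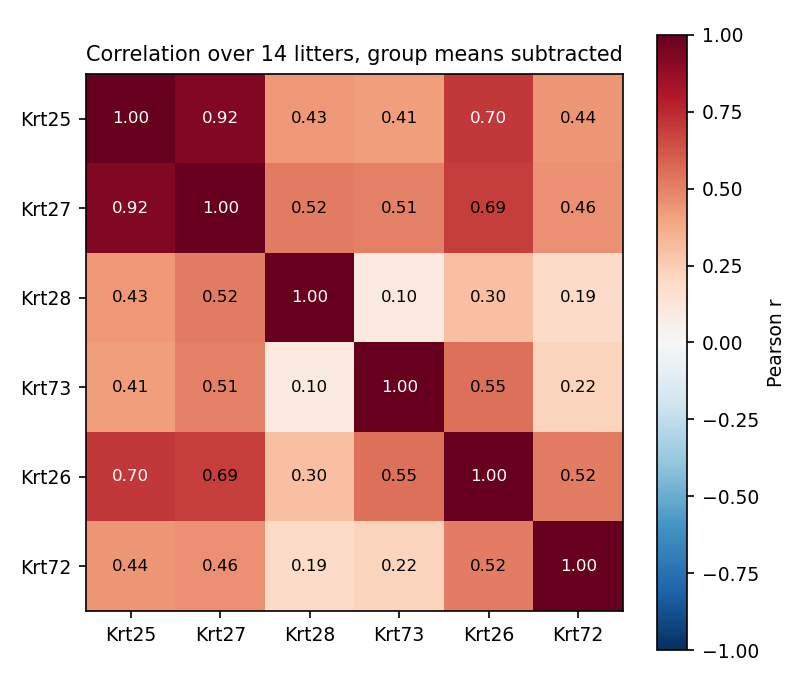
Pearson correlations between the 4 inner root sheath keratins, Krt26 and Krt72 over 14 litters after group means were subtracted, from -1 (blue) to 1 (red). The pair of Krt25 and Krt27 stands at 0.92, and Krt28 and Krt73 at 0.10.

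Array spread, the basal keratinocyte mean and the hair shaft keratin mean were set against each member in 12 further correlations, and none passed after adjustment (lowest adjusted permutation p = 0.418). The SD of the array had its highest r, 0.566, with Krt73 (permutation p = 0.0348; rho 0.486, permutation p = 0.0804; r 0.442 without the 2 farthest litters). With the array SD as a covariate the group difference of Krt73 was -0.26 (limma adjusted p = 0.462).

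Genes most like the members were ranked by the mean of their 4 correlations with them over 14 litters, group means subtracted, as a description. Over all other genes this mean had a median of 0.02 and ran from -0.35 to 0.38 between the 5th and the 95th percentile. Tprn, which encodes taperin of the inner ear, was first with 0.729, followed by Gkn1 with 0.669, Tmem26 with 0.650, Dsg4 with 0.619, Pgap2 with 0.609, Paqr5 and Sft2d2 with 0.607 each and the keratin-associated protein Krtap10-10l2 with 0.603. Dsg4 followed Krt25 and Krt27 with 0.841 and 0.808 but Krt73 with 0.191, and Krtap10-10l2 followed them with 0.748 and 0.765 but Krt73 with 0.125. Tprn and Gkn1 had low values, with means of 4.68 and 4.19 in flutamide and 4.61 and 4.06 in corn oil litters. Unlike the members, all these most alike genes but Dsg4 had higher means in flutamide litters. Tmem26 differed by 0.20 and Pgap2 by 0.28 (limma adjusted p = 0.363 and 0.302). Krt26 ranked 26 with a mean of 0.563, and Krt72 ranked 1190 with 0.327. The most opposed were Siva1 with -0.644, Adap2 with -0.641, Snap29 with -0.630 and Svbp with -0.616. Without corn oil replicate 1 the mean of Dsg4 was 0.458 and that of Krtap10-10l2 was 0.446. The lowest means with single litters left out were 0.640 for Tprn, 0.527 for Gkn1 and 0.583 for Tmem26. For Pgap2, Paqr5 and Sft2d2 they were 0.438, 0.534 and 0.555. The weakest opposed means were -0.530 for Siva1, -0.498 for Adap2, -0.502 for Snap29 and -0.495 for Svbp.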

How the data were processed

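The values deposited by the authors are log2 signals of 28826 probe sets in each of 14 samples, made with RMA per the submitters' processing notes; RMA corrects background, normalises between arrays, shrinks differences of dim probe sets and removes changes shared by most genes. For its version and the array's genome build the sources used here give nothing. That the scale is log2 follows from the range of the values, 0.669 to 13.8. Per the labels' protocols, 50 ng of RNA was amplified with a NuGEN kit. Names came from the platform annotation in GEO: 15209 probe sets had 1 symbol, 306 several and 13311 none or were not listed. Symbols were updated by gene number through RefSeq (GRCr8), matching 14471 of 14497 genes. The brightest probe set stood for a gene.

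Flutamide and corn oil litters were compared by limma 3.58.1 (R 4.3.3; lmFit, eBayes), two-sided, adjusted over all genes at 0.05; the fit was tested on simulated data. Correlations used 100000 resamples, or all orders within groups of 7; ratios used all 3432 splits. The number of arrays limits precision. The members and the 18 lists were chosen with earlier results of these data known. Named genes were the members, the other inner root sheath keratins, the 3 smallest p-values of each hair list described and the 8 most and 4 least alike genes; predicted and chemosensory receptor genes were passed over. All 4 promoters were matched in RefSeq. Alternatives were other models, scalings, probe sets, filters, covariates, left-out litters and a replicate block.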

Additional observations from a re-analysis of the deposited data

Results flagged for a closer look

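Within groups of 7 litters, 10 values stood apart from the rest of their group among 92 sets checked, where chance flags about 1 in 20. Corn oil replicate 1 was low for Krt28 at 6.34 (others 6.58 to 6.77), for Padi3 at 5.22 (others 5.48 to 5.67) and for Dsg4 at 5.73 (others 5.97 to 6.13). The same litter was high for the red blood cell list mean at 6.49 (others 6.13 to 6.26) and for the macrophage list mean at 6.25 (others 5.90 to 5.95). Flutamide replicate 4 was low for Padi1 at 4.63 (others 4.88 to 5.00), and corn oil replicate 7 for Crabp1 at 7.47 (others 7.71 to 7.87). Flutamide replicate 1 had an interferon response list mean of 5.54 (others 4.33 to 4.44). Flutamide replicate 7 had an array SD of 1.68 (others 1.71 to 1.73), and corn oil replicate 6 had a companion layer and outer root sheath list mean of 7.02 (others 7.18 to 7.31).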

How the results depend on the processing

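The differences of the 4 members kept their sign and stayed above an adjusted p of 0.05 in all 104 alternative fits run, the lowest adjusted p being 0.205. With single litters left out Krt25 ran from -0.19 to -0.06, Krt27 from -0.18 to -0.06, Krt28 from -0.14 to -0.06 and Krt73 from -0.34 to -0.28. Without both corn oil replicate 1 and flutamide replicate 7 they were -0.24, -0.22, -0.15 and -0.29. Replicate numbers are shared between groups, and the labels do not say whether they mark pairs. Over all genes, deviations of same-numbered litters from their group means correlated at -0.072 to 0.147, with 1 of 7 above 0.1. They were not treated as pairs, although such a correlation cannot exclude pairing for single genes. With the replicate number as a block the SE fell from 0.118 to 0.081 for Krt25 and from 0.111 to 0.085 for Krt27. It rose from 0.069 to 0.078 for Krt73. The limma adjusted p with the block was 0.708 for Krt25, 0.706 for Krt27 and 0.254 for Krt73, whose difference was -0.30. With this block 0 genes were called in all. That count was also 0 with array SD as a covariate and without both litters named, 2 with a trend in eBayes or the basal keratinocyte covariate, and 0 to 1 with single litters left out; the cause was not tested. Of the 6 member pairs, the number correlated was 0 within flutamide litters, 2 within corn oil litters, 2 with array SD and group regressed out and 1 to 2 with single litters left out. Within flutamide litters Krt25 and Krt28 had an r of -0.085, and Krt28 and Krt73 of -0.028. Group differences of the ratio ran from -0.017 to 0.036 for Krt25 to Krt27, -0.079 to 0.030 for Krt25 to Krt28 and -0.082 to 0.024 for Krt27 to Krt28 with single litters left out. For Krt73 to Krt28 the adjusted exact permutation p was 0.0385 without corn oil replicate 6, and 0.101 to 0.448 without any other single litter.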

Other observations

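Krt16 and Ccnb2 had the widest spread among flutamide litters of the hair and proliferation genes described. Krt16 ran from 7.01 to 9.17 in flutamide litters, against 6.62 to 7.64 in corn oil litters, with flutamide replicates 1 and 6 above the rest at 9.17 and 8.63. Without flutamide replicate 1 the Krt16 difference between the groups was 0.40. Flutamide replicate 1 is also the litter with an interferon response list mean of 5.54, and whether this bears on Krt16 was not tested. Ccnb2, a mitotic cyclin gene, ran from 6.32 to 7.72 in flutamide litters, against 7.04 to 7.86 in corn oil litters, lowest in flutamide replicate 2. For the other mitotic cyclin gene Ccnb1, flutamide replicate 2 was the highest of all litters at 7.33. Neither group difference passed the test over all genes.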
